A study of Mus musculus with 9 samples.

Results

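Gastrocnemius muscle lacking 2 of the p38 mitogen-activated protein kinases was compared with control muscle across every gene of the deposited table. The members were the 3 libraries of genotype p38alpha/gammaMCK-KO and the 3 control libraries, 6 of the 9 libraries of the series, chosen by their genotype labels. All 9 libraries came from gastrocnemius of mice that had eaten a high-fat diet for 6 weeks. The other 3 libraries were p38alphaMCK-KO, the knockout of p38alpha alone, and are used here only for the shared estimate of spread and for the direct difference between the knockouts. MCK names the muscle creatine kinase promoter, which drives deletion in striated muscle fibres, so cells between the fibres are expected to keep both genes. The labels give neither the alleles carried by the controls nor the age or sex of the mice, and they do not say whether each library came from its own animal.

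The p38 kinases sit at the end of a tiered relay. Upstream kinases of the MAP3K family activate MAP2K3 and MAP2K6, which phosphorylate p38, and p38 then acts on kinases and transcription factors such as MAPKAPK2 and MEF2. In muscle, p38alpha, encoded by Mapk14, is known for its part in myoblast differentiation, fibre metabolism and stress responses. The isoform p38gamma, encoded by Mapk12, is enriched in skeletal muscle. The other isoforms are p38beta, encoded by Mapk11, and p38delta, encoded by Mapk13.

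The depth was similar in all libraries, and the reads inferred from the values lay between 23.8 and 27.9 M per library. Each value in the table is a normalised count, and a library sums to between 896829 and 1132175. The 10 highest genes took 25.8 to 26.9% of the control libraries and 21.5 to 22.99% of the p38alpha/gamma knockout libraries. One library of the p38alpha knockout, replicate 1, stood apart (log2 correlation of 0.960 with replicate 3 of its own group), and without it 5346 instead of 3368 genes passed the test described below. Of the 12 muscle markers (Acta1, Ckm, Ttn, Myh4 and others) all were measured, and their summed level was 148113 to 159731 in the control and 107137 to 109551 in the p38alpha/gamma knockout libraries. None of 17 lymphocyte markers was among the genes tested.

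Both targeted genes fell, and Mapk11 did not pass the test. Mapk14 (chromosome 17, 28691329 to 28748406, plus strand, GRCm38) had normalised counts of 143, 149 and 157 in the control libraries. In the p38alpha/gamma knockout it had 54.7, 37.0 and 42.7, and in the p38alpha knockout 43.8, 45.5 and 40.3. The knockout libraries all lay far below the controls and overlapped each other. On the log2(normalised count + 1) scale, used for every difference here, Mapk14 was lower by −1.73 ± 0.129 (SE; limma, Benjamini-Hochberg adjusted p = 0.000137, 3 libraries against 3). The remaining level cannot be divided between fibres and other cells in whole-muscle RNA.

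Mapk12 (chromosome 15, 89130584 to 89140703, minus strand, GRCm38) separated all 3 genotypes. Its normalised counts were 139.9, 138 and 152 in the control, 96.5, 103 and 105 in the p38alpha knockout and 31.2, 35.5 and 32.8 in the p38alpha/gamma knockout. The difference from control was −2.08 ± 0.0826 (limma adjusted p = 9.84e-07) and that from the p38alpha knockout was −1.59 (adjusted p = 8.91e-06). For both targeted genes an exact two-sided permutation test of the 3 and 3 libraries gave p = 0.1, the smallest value this design can give. Mapk11, the neighbour of Mapk12 on the chromosome, was near the bottom of the table, at 2.21, 1.96 and 1.37 in the control and 1.84, 2.46 and 2.11 in the p38alpha/gamma knockout (difference 0.15, adjusted p = 0.572). Mapk13 was not among the genes tested. The cytokine Il15 had 7.72, 5.08 and 5.01 in the control and 6.29, 6.23 and 8.25 in the p38alpha/gamma knockout, which overlap (difference 0.21, adjusted p = 0.439).

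**Figure D1:**
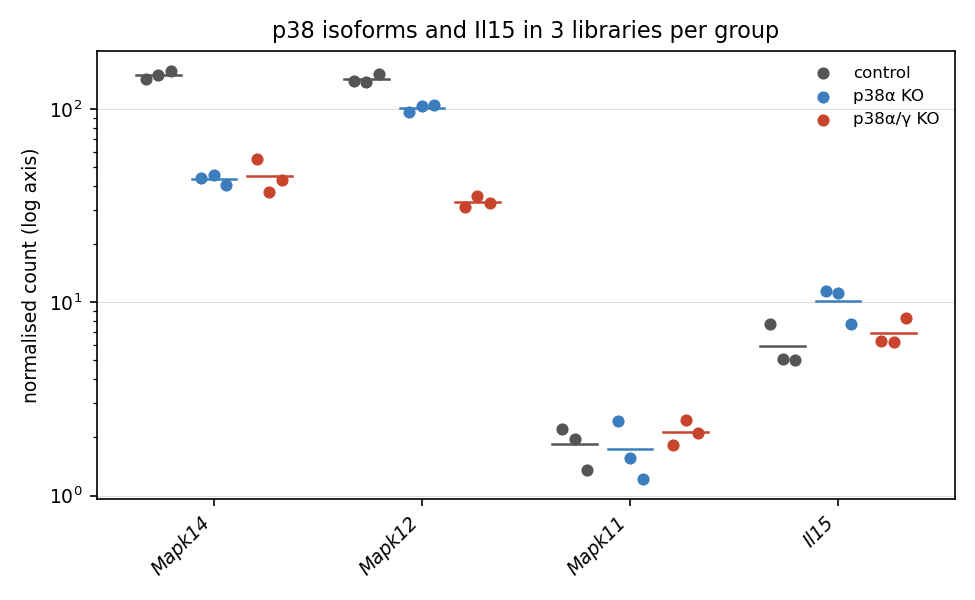
Normalised counts of Mapk14, Mapk12, Mapk11 and Il15 in each of the 9 libraries by genotype; points are libraries and lines are group means. Mapk14 is low in both knockouts, Mapk12 is lowest in the p38alpha/gamma knockout, between 31.2 and 35.5, and Mapk11 and Il15 overlap between the p38alpha/gamma knockout and the control.

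Of 13137 genes tested, 3368 (25.6%) passed an adjusted p of 0.05 against control in limma. They were 1476 higher (11.2%) and 1892 lower (14.4%). A change of at least 2-fold was called in 242 genes upward (1.84%) and 173 downward (1.32%), so small changes made up most of the calls. The 3 and 3 libraries did not overlap in 7221 genes (55.0%), 3464 of them higher (26.4%) and 3757 lower (28.6%). The median difference over all tested genes was 0.02. With libraries scaled to the sum of their values that median moved to 0.20, and the calls then split into 3349 higher and 836 lower. Small falls are therefore read here beside that shift. Of 238 called genes singled out by the naming rule, 138 lost the call in at least 1 of the 9 fits that each left out 1 library. The losses were 129 without p38alpha/gamma knockout 2, 120 without p38alpha/gamma knockout 3, 105, 74 and 111 without control 1, 2 and 3, and 20 each without p38alpha/gamma knockout 1 and p38alpha knockout 2. Such genes are marked below by the number of these fits in which the call was lost.

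The direction of the calls moved with the level and with the length of the gene. With the genes cut into 5 equal bins by their control level, 17.7% of the lowest bin were called higher and 3.31% lower, and in the highest bin 7% were higher and 29.5% lower. With 5 bins by exonic length, 19.0% of the shortest (up to 2353 bases) were called higher and 6.97% lower, against 6.48% and 23.2% of the longest. The median difference was 0.19 in the shortest and −0.14 in the longest bin. Several gene groups below are made of short or of abundant genes, and the part of length and level in their counts was not tested.

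**Figure D2:**
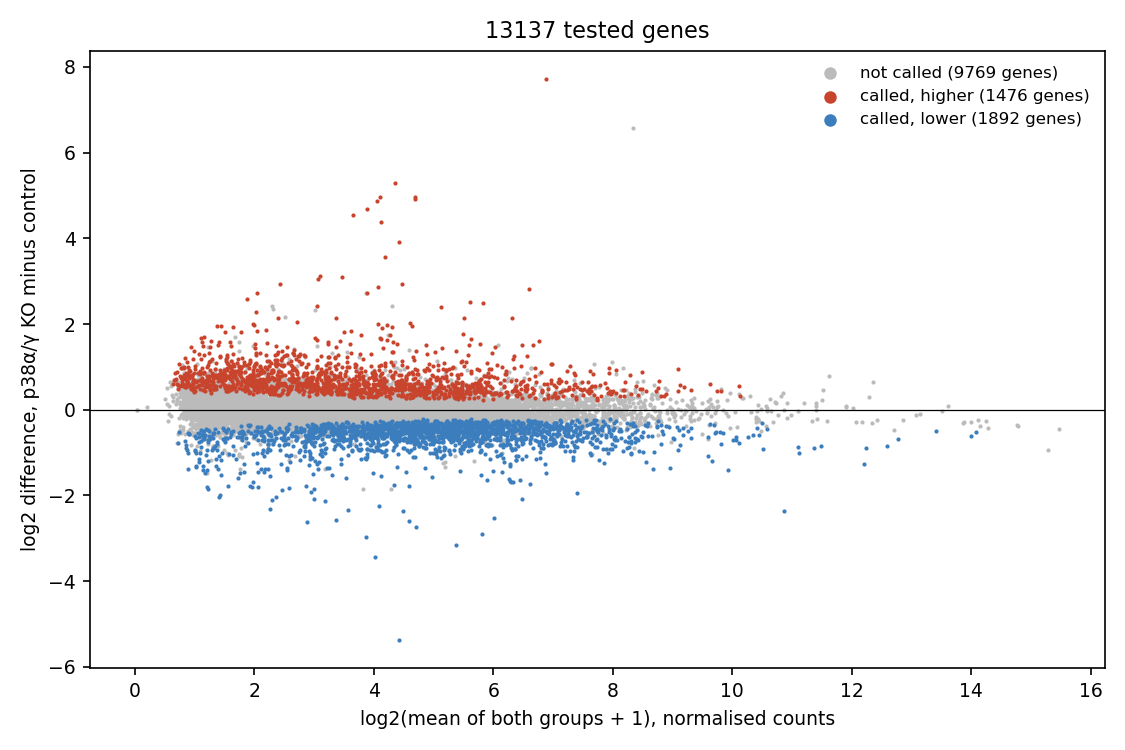
Log2 difference, p38alpha/gamma knockout minus control, against log2(mean normalised count of both groups + 1), with 1 point per tested gene and called genes in colour. The 1476 genes called higher (red) are dense at low levels, and at the highest levels most coloured points belong to the 1892 called lower (blue).

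Sln, Ucp2, Ankrd1 and Fam171b were among the largest called rises. Sarcolipin, encoded by Sln, is a small membrane protein that uncouples the sarcoplasmic reticulum calcium pump. It had normalised counts of 1.36, 1.76 and 1.37 in the control and 21.4, 58.8 and 38.5 in the p38alpha/gamma knockout. The groups were far apart, and the difference was 3.92 ± 0.616 (limma adjusted p = 0.00518). Ucp2, which encodes an uncoupling protein of the inner mitochondrial membrane, stood at 20.3, 26.8 and 20.4 in the control and 114, 226 and 170.5 in the p38alpha/gamma knockout (2.83 ± 0.226, adjusted p = 0.000219). The p38alpha knockout lay between them, at 61.3, 53.6 and 44.6, and the direct difference between the knockouts passed the test (1.62, adjusted p = 0.0133). Ankrd1, a stretch-responsive partner of titin, went from a control range of 12.6 to 21.7 to 84.4, 113 and 89.1 (2.49, adjusted p = 0.0144), and its call was lost in 4 of the 9 fits (adjusted p up to 0.0624). Fam171b, for which no role is given here, rose by 2.86 (adjusted p = 0.00386).

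Called developmental muscle genes spread widely between the p38alpha/gamma knockout libraries. Embryonic myosin heavy chain, Myh3, had 2.61, 4.01 and 4.05 in the control and 18.4, 69.1 and 29.6 in the p38alpha/gamma knockout (2.94, limma adjusted p = 0.0178). Perinatal myosin heavy chain, Myh8, had 2.09, 1.797 and 1.19 in the control and 6.39, 59.5 and 11.5 in the p38alpha/gamma knockout (2.74, adjusted p = 0.0387, and 0.052 with a replicate block). Mymk encodes myomaker, the membrane protein of myoblast fusion. It was at or near no reads in the control (0.0203, 0.0197 and 0.195) and at 1.73, 14.0 and 2.52 in the p38alpha/gamma knockout (adjusted p = 0.0456, and 0.0593 with the block). Library 2 of the p38alpha/gamma knockout was the highest of its group in Sln, Myh3, Myh8 and Mymk. The calls of Myh3, Myh8 and Mymk were lost without that library and in 4, 6 and 6 of the 9 fits in all, and the highest adjusted p over the fits that each left out 1 library was 0.076, 0.13 and 0.156. Over the 17 developmental and myogenic genes tested, 4 rose and none fell (median 0.63). With the replicate block 2 rose, where 7.83% of all genes were called higher. Without the p38alpha knockout libraries 9 rose and 1 fell, in a fit that called 19.9% of all genes higher and 22.8% lower.

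Metallothioneins rose in every p38alpha/gamma knockout library. Mt1 and Mt2 encode small cysteine-rich proteins that bind zinc and copper, and they lie next to each other on chromosome 8. Mt1 had 13.3, 19.9 and 13.9 in the control and 71.5, 86.9 and 60.5 in the p38alpha/gamma knockout (2.15 ± 0.203, limma adjusted p = 0.000659). Mt2 had 5.45, 16.6 and 9.52 in the control and 65.3, 72.1 and 35.2 in the p38alpha/gamma knockout (2.40 ± 0.386, adjusted p = 0.00532). The p38alpha knockout held Mt1 at 64.8, 101 and 69.98 and Mt2 at 45.7, 80.4 and 43.8, and the direct difference between the knockouts did not pass the test for either gene (adjusted p = 0.882 and 0.991).

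Because these neighbours moved together, their promoters are shown from RefSeq (GRCm38.p6, 250 bases before to 50 after each start, 5′ to 3′ on the gene's strand). Capitals mark matches to TGCACNC or TGCGCNC on either strand, the core of the metal response element bound by the factor MTF1. Mt1 lies at chr8:94178839-94179138 and Mt2 at chr8:94172368-94172667, both on the plus strand.
Mt1: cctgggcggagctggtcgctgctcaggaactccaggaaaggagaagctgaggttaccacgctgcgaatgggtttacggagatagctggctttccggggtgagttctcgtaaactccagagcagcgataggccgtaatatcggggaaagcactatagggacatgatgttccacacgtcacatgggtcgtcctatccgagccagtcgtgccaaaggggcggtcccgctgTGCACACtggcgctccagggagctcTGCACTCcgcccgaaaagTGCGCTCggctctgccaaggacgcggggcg
Mt2: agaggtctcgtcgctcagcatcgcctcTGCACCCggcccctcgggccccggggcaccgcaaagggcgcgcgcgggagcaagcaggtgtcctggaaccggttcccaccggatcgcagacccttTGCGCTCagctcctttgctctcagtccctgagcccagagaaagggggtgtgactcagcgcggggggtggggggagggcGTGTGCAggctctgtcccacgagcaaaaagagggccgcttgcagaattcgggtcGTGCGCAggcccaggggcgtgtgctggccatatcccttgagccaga
The Mt1 window held 3 matches and the Mt2 window 4. Of 32851 RefSeq promoters of this length, 8444 (25.7%) held at least 1 and 170 (0.517%) held at least 4. A match is a description of letters and not a measured site.

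Apart from Mapk12, Ostn and Pla2g7 had the lowest adjusted p among the largest called falls. Ostn encodes musclin (osteocrin), a peptide secreted by muscle. It fell from 34.9, 30.8 and 20.01 to 2.33, 1.62 and 1.21 (−3.43 ± 0.219, limma adjusted p = 4.16e-05). Pla2g7 encodes the platelet-activating factor acetylhydrolase. It fell from 101, 98.4 and 93.6 to 13.4, 13.7 and 10.01 (−2.90 ± 0.158, adjusted p = 1.17e-05). Pla2g7 had tight groups, while the control libraries of Ostn were spread more widely, and both genes had a wide gap between the groups. In the p38alpha knockout Pla2g7 was at 9.83 to 14.5, which overlaps the p38alpha/gamma knockout. Ostn was at 2.84 to 4.02 there, above every p38alpha/gamma knockout library, and the direct difference did not pass the test (−0.74, adjusted p = 0.217). Rasd2, a small GTPase of the Ras family, fell from 96.6, 120.1 and 109 to 20.5, 20.1 and 14.2 (−2.52, adjusted p = 0.00244). Pdpr encodes the regulatory subunit of pyruvate dehydrogenase phosphatase and fell from 46.5, 45.3 and 28.5 to 10.1, 3.72 and 4.65 (−2.59, adjusted p = 0.00964). Mss51, a mitochondrial protein enriched in fast muscle, fell from 190.4, 248 and 367 to 85.5, 64.8 and 53.5 (−1.94, adjusted p = 0.0124). Its control libraries spread over almost the whole of the difference between the group means, and its call was lost without p38alpha/gamma knockout 2 or 3 or control 3 (adjusted p up to 0.0526). The adhesion molecule Cdh4 (−2.57), the serine protease Htra4 (−2.34), the growth factor binding protein Fgfbp1 (−2.13), the non-coding RNA Plet1os (−2.03) and the DNA polymerase eta gene Polh (−1.85) completed the set, with adjusted p between 0.000905 and 0.00481.

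**Figure D3:**
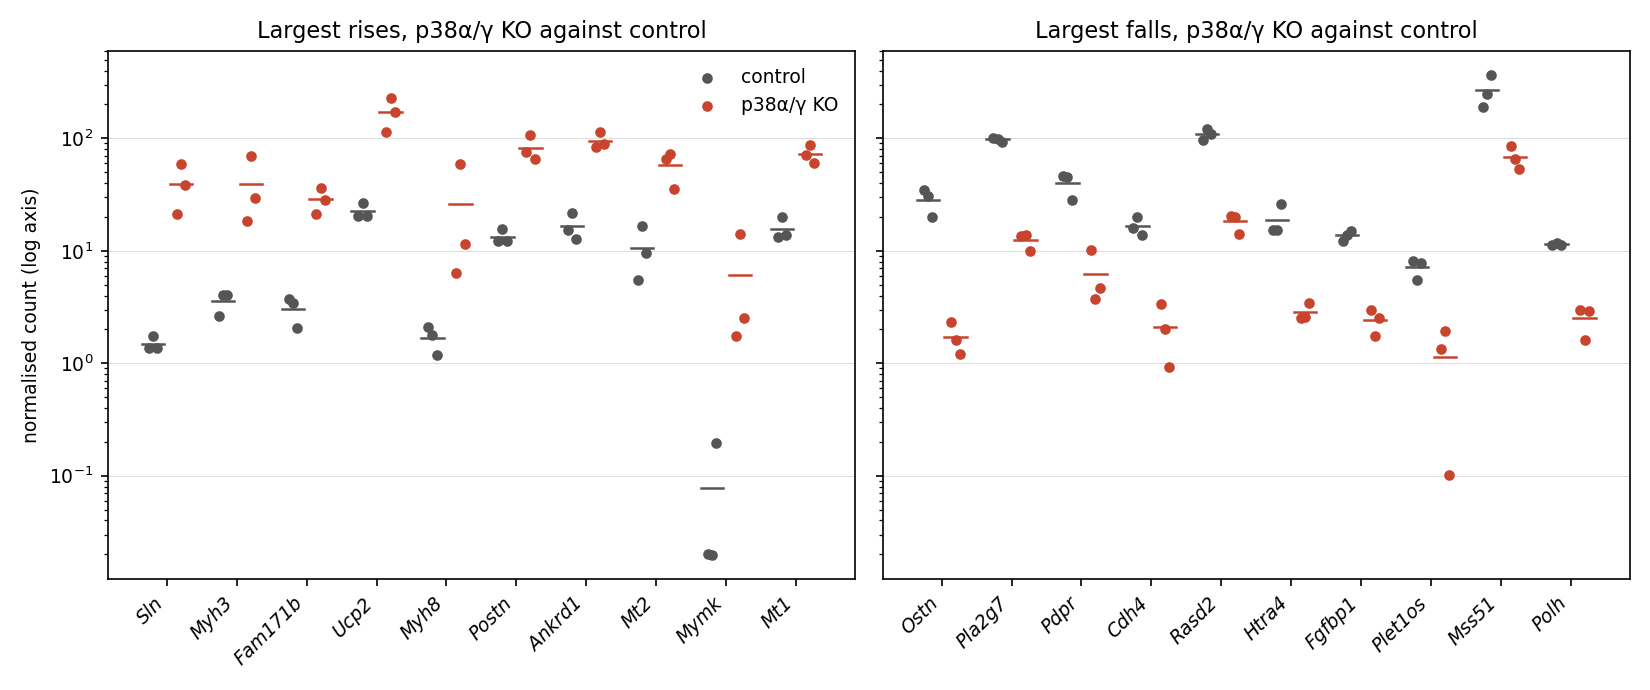
Normalised counts (log axis) in each control and p38alpha/gamma knockout library for 10 of the genes with the largest called rises (left) and 10 with the largest called falls (right); points are libraries, coloured by genotype, and lines are group means. Genes were drawn only if the p38alpha/gamma knockout and control libraries did not overlap, which held for 55.0% of all tested genes. The rises of Myh8 and Mymk spread most within the p38alpha/gamma knockout.

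Several of the largest differences were in genes that share sequence with another row of the table, so single-row values were set beside sums. Adnp, a transcription factor gene, was listed at 0.101, 0.0592 and 0.0217 in the control and at 35.1, 30.3 and 31.0 in the p38alpha/gamma knockout (4.96, limma adjusted p = 0.0103). Gm20716, a gene model that overlaps Adnp on the same strand, went the other way (−5.37, adjusted p = 0.00726). The sum of both rows was 41.2 ± 1.86 (SD, n = 3) in the control and 32.2 ± 2.61 in the p38alpha/gamma knockout. The Adnp row and this sum thus had opposite directions. Gm20716 also overlaps Dpm1. With Dpm1 added, the sum was 89.1 ± 4.28 in the control and 86.0 ± 3.57 in the p38alpha/gamma knockout, with overlapping libraries (−0.05). In 1 library of the p38alpha knockout Adnp was at the value of no reads, while the others had 26.2 and 22.6.

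Other pairs behaved alike. Hmga1b rose by 4.55 (limma adjusted p = 6.21e-08) while its near-identical partner Hmga1 fell by 1.78, and their sum was 36.1 ± 0.462 in the control and 32.8 ± 2.62 in the p38alpha/gamma knockout. Galnt2 fell by 3.16 (adjusted p = 0.0202, lost in 5 of the 9 fits that left out 1 library), while Gm20388, a gene model spanning it, rose by 4.97. Their sum went from 71.6 ± 1.92 to 59.3 ± 5.48. Hspa8, which encodes the constitutive heat shock cognate HSC70, fell from 1319, 1312 and 1248 to 738, 910.4 and 848 (−0.64, adjusted p = 0.00601). Its processed pseudogenes Gm15459 and Gm5575 were at about 0 reads in the control, and Gm15459 stood at 363, 138 and 198 in the p38alpha/gamma knockout. The sum of the 3 rows was 1293 ± 39.5 in the control and 1092 ± 38.8 in the p38alpha/gamma knockout, a smaller fall (−0.24).

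Further rows, near-identical to ribosomal protein genes or to Gpi1, gave the same picture with other outcomes. Rpl3-ps1 had no reads in the 6 control and p38alpha knockout libraries and 40.8, 40.6 and 35.8 in the p38alpha/gamma knockout. Rpl3 itself did not pass the test (−0.15, limma adjusted p = 0.52), and the sum of both was 56.3 ± 8.59 in the control, 88.1 ± 12.7 in the p38alpha knockout and 90.1 ± 11.2 in the p38alpha/gamma knockout. Gm10073 plus Rplp1 summed to 338 ± 23.7 in the control and 570 ± 88.4 in the p38alpha/gamma knockout. Rps13-ps1 plus Rps13 summed to 167 ± 7.55 and 201 ± 21.9. For Gm1840 plus Gpi1 (1065 ± 35.5 and 1051 ± 98.1) and Mrpl48-ps plus Mrpl48 (47.5 ± 0.864 and 51.9 ± 3.55) the summed libraries overlapped. The fitted difference of a row without reads in 1 group depends on the pseudocount and is no fold change. The submitters name RSEM 1.3.1 among their tools, and how their counting divided reads between such rows is not described in the sources used here.

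**Figure D4:**
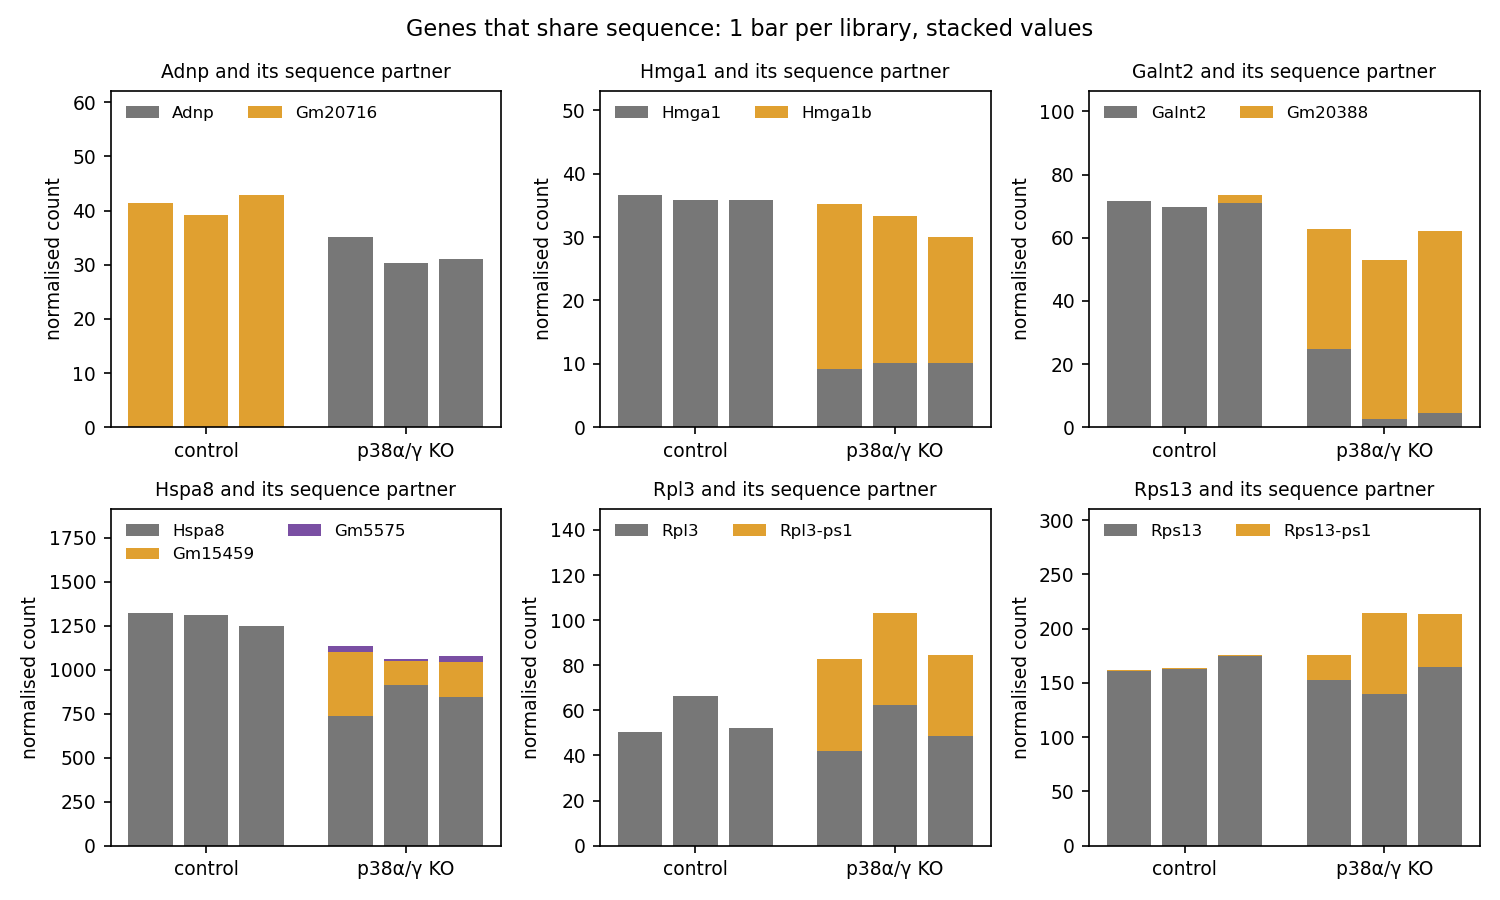
Normalised counts of genes and of the rows that share their sequence, stacked in 1 bar per library, so that the top of a bar is the sum. Single rows such as Adnp and Rpl3-ps1 lie near 0 in control libraries and above 30 in the p38alpha/gamma knockout, whereas the sums of Adnp and Gm20716 lie between 30.3 and 42.9 in the 6 libraries.

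Gene groups were then read against the background of 11.2% higher and 14.4% lower. With the replicate block these shares were 7.83% and 9.83%, and with the 6 libraries alone 19.9% and 22.8%, so counts from those fits are read against them. Markers of macrophages held the largest share of rises among the lists. Of 30 measured, 26 rose and none fell, with a median difference of 1.27 against 0.02 over all genes. Cd74, the invariant chain of class II antigen presentation, had 51.8, 60.6 and 46.3 in the control and 144, 194 and 151 in the p38alpha/gamma knockout (1.60 ± 0.234, limma adjusted p = 0.00408). The class II chains H2-Ab1 (1.44), H2-Aa (1.36) and H2-Eb1 (1.35) rose with it. C1qc, a chain of the first complement component made by macrophages, had 6.58, 8.55 and 6.39 in the control and 22.3, 36.9 and 18.1 in the p38alpha/gamma knockout (1.66, adjusted p = 0.0111). Adgre1 (0.81), Csf1r (1.11), Trem2 (1.25), Lgals3 (1.99) and Ctss (1.91) were among the other risers, of which Adgre1, Csf1r, Trem2 and Lgals3 lost the call in 6, 4, 5 and 2 of the 9 fits that left out 1 library. Cd163, Itgb2, Ly6c2 and F13a1 did not pass the test.

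The summed level of the macrophage markers was 224 to 294 in the control, 552 to 904 in the p38alpha/gamma knockout and 410.1 to 915 in the p38alpha knockout. The count was 27 of 30 with the replicate block and also 27 without the p38alpha knockout libraries. Whole-muscle RNA cannot tell apart more cells of a type and more RNA per cell, and this holds for every group below. Among markers of neutrophils and mast cells only 6 of 15 were tested, and the mast cell tryptase Tpsb2 alone passed (0.88, limma adjusted p = 0.0336, lost in 5 of the 9 fits that left out 1 library).

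The class II promoters of H2-Aa (chr17:34287774-34288073, minus strand) and H2-Eb1 (chr17:34305617-34305916, plus strand) are shown because both genes rose together, with capitals at CCAAT on either strand, the Y box of class II promoters.
H2-Aa: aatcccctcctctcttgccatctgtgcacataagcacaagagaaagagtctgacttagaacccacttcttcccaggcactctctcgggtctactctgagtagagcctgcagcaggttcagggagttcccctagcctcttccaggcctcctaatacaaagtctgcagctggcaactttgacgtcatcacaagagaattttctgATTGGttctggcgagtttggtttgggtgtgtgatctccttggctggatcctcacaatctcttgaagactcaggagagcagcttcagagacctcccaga
H2-Eb1: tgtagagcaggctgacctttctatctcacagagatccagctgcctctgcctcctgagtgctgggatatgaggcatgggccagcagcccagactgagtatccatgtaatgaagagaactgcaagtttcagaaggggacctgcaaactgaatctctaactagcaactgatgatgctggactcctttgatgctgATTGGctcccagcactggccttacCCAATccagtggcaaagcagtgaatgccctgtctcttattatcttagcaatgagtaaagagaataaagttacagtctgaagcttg
H2-Aa held 1 match and H2-Eb1 held 2. The motif occurs in 12289 of the 32851 promoters (37.4%), so its presence here is near what is common.

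Other immune genes rose in smaller shares. Of 21 cytokine and chemokine genes tested, 11 rose and none fell (median 0.53). The interferon-inducible chemokine Cxcl10 had 0.466, 0.336 and 0.802 in the control and 4.29, 4.28 and 4.44 in the p38alpha/gamma knockout (1.81, limma adjusted p = 0.00616). The TWEAK receptor Tnfrsf12a (0.82, adjusted p = 0.00443), Ccl9 (1.23) and Ccl6 (1.22) rose too. Of 18 complement genes 9 rose, 3 of them the C1q chains counted above, and the regulator Cd55 fell (−0.95, adjusted p = 0.00172). In antigen presentation by class I, 7 of 19 rose and 1 fell (median 0.45), with the peptide transporter Tap2 at 0.75 (adjusted p = 0.00532). Of 33 interferon-response genes 5 rose (Irf1, Irf9, Ifit3, Ifi35 and Rsad2), close to the background, and the median was 0.22. All of these but Ifi35 lost the call in 2 to 6 of the 9 fits that left out 1 library, as did Ccl6 in 1. Without the p38alpha knockout libraries 11 interferon-response genes rose, in a fit that called 19.9% of all genes higher.

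Fibroblast and matrix genes were called higher or not at all. Of 20 markers of fibro-adipogenic progenitors, the mesenchymal cells between fibres, 11 rose and none fell (median 0.50). Their summed level was 1687 to 2159 in the control and 2418 to 3134 in the p38alpha/gamma knockout. Pi16 had 27.4, 32.5 and 21.7 in the control and 76.4, 86.8 and 77.4 in the p38alpha/gamma knockout (1.54, limma adjusted p = 0.0162). Of 45 matrix genes 12 rose and none fell (median 0.63), and 28 rose without the p38alpha knockout libraries, where 19.9% of all genes were called higher. Postn, the matrix protein periostin, had 12.1, 15.7 and 12.2 in the control and 76.2, 107 and 64.8 in the p38alpha/gamma knockout (2.52, adjusted p = 0.015). Its p38alpha knockout libraries ran from 19.6 to 157. Col8a1, a short-chain collagen, rose by 2.0 (adjusted p = 0.0117) and the membrane protease Mmp14 by 1.14 (adjusted p = 0.0122). The calls of Postn, Pi16, Col8a1 and Mmp14 were lost without 1 library in 3, 4, 1 and 2 of 9 fits. Schwann cell (0 of 14) and erythroid (0 of 5) markers held no call in limma, and 0 of them had an unadjusted p under 0.05, while endothelial markers split into 2 higher and 4 lower of 21.

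Within the p38 relay itself, the direct activators rose. Map2k6 had 19.8, 19.7 and 18.5 in the control and 70.7, 64.1 and 70.9 in the p38alpha/gamma knockout (1.77 ± 0.15, limma adjusted p = 0.000333). Map2k3 had 183, 172 and 188 in the control and 297, 351 and 394 in the p38alpha/gamma knockout (0.93 ± 0.159, adjusted p = 0.00629). Both separated the groups fully, and both were also above the control range in the p38alpha knockout, at 63.9 to 104 and 238 to 374. Gadd45a, a stress gene whose product activates MAP3K4, rose by 1.66 (adjusted p = 0.00644). Higher in the relay, Map3k7, which encodes TAK1, fell by 0.55 (adjusted p = 0.0063), its adaptors Tab2 and Tab3 were also called lower (Tab3 not in 3 of the 9 fits that left out 1 library), and Map3k20 did not pass the test. Of 20 upstream genes 4 rose and 6 fell.

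Downstream of p38, 2 of 19 genes rose and 3 fell, close to the background. The replicate block left 1 rise and no fall, and the median of −0.15 turned to 0.05 with scaling to the sum of values. The small heat shock protein gene Hspb1 rose by 0.90 (limma adjusted p = 0.0184), and the transcription factor gene Mef2a fell by 0.71 (adjusted p = 0.0295, and 0.0544 with the replicate block). Of the neighbouring kinases of the ERK and JNK branches, 1 of 13 rose and 5 fell (median −0.24, and −0.03 with scaling to the sum of values). The replicate block left no rise and 2 falls. Mapk6, encoding ERK3, fell by 0.70 (adjusted p = 0.0039) and the JNK2 gene Mapk9 by 0.66 (adjusted p = 0.0116). Dual-specificity phosphatases, which switch these kinases off, gave 3 higher (with Dusp14 at 0.87 and Dusp8 at 0.52) and 3 lower (with Dusp26 at −0.61 and Dusp13 at −0.40) of 17. Immediate-early genes gave 8 higher and none lower of 22. Jund rose by 0.99 (adjusted p = 0.00818). Ier3 rose by 0.68 (adjusted p = 0.0145) and also exceeded the p38alpha knockout (1.03, adjusted p = 0.0193). The call against control was lost in 4 of the 9 fits that left out 1 library for Hspb1, Dusp8 and Dusp13, in 5 for Mef2a and in 2 for Mapk9, Dusp26 and Ier3, with adjusted p up to 0.104.

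Fast-fibre genes fell or did not pass the test. Of 16 tested, 5 fell and none rose, with a median of −0.34 that became −0.02 under quantile normalisation. The count of falls was 3 with the replicate block. Myl1, the essential light chain of fast myosin, had 9183, 7894 and 8872 in the control and 5362, 5367 and 5288 in the p38alpha/gamma knockout (−0.69 ± 0.134, limma adjusted p = 0.00932). Actn3, the fast-fibre alpha-actinin, had 8058, 7723 and 7974 in the control and 4475, 4463 and 4190.3 in the p38alpha/gamma knockout (−0.86, adjusted p = 0.042). The gap was wide and the groups were tight, but the p38alpha knockout ran from 3388 to 8265 and widened the shared spread. Mybpc2, fast myosin-binding protein C, fell by 0.90 (adjusted p = 0.0354). With the replicate block the adjusted p was 0.0585 for Actn3 and 0.0512 for Mybpc2, and under quantile normalisation Myl1, Actn3 and Mybpc2 all missed the threshold. Actn3 and Mybpc2 lost the call in 7 and 6 of the 9 fits that left out 1 library. Myh4, the IIb myosin heavy chain, was the most abundant of these. It averaged 52317 ± 1738 in the control and 27482 ± 1897 in the p38alpha/gamma knockout, and it did not pass the test (−0.93, adjusted p = 0.0728). With the 6 libraries alone it did (adjusted p = 0.00252).

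Of 15 slow and oxidative fibre genes tested, 1 rose and none fell (median 0.48), which is below the background of 11.2% higher. Without the p38alpha knockout libraries 6 rose, where 19.9% of all genes were called higher. The riser was Casq2, the slow-fibre and cardiac calsequestrin, at 28.0, 27.3 and 29.7 in the control and 107, 152 and 128 in the p38alpha/gamma knockout (2.13 ± 0.416, limma adjusted p = 0.00947). Its p38alpha knockout libraries were at 169, 90.04 and 37.1. Myh2, the fast IIa myosin heavy chain of oxidative fibres, was counted in this list. It averaged 2307 ± 485 in the control and 3954 ± 176 in the p38alpha/gamma knockout and did not pass (0.80, adjusted p = 0.164).

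Of 23 Z-disc and stretch genes 7 fell and 1, Ankrd1, rose (median −0.22, and −0.01 with scaling to the sum of values). With the replicate block 2 of them fell, where 9.83% of all genes were called lower. Capn3, the muscle calpain, fell from 137, 129.5 and 127 to 74.5, 65.99 and 68.3 (−0.90, limma adjusted p = 0.00375). Of 19 genes of the dystrophin complex 6 fell and 2 rose, and with the replicate block 6 fell and 1 rose. Their median of −0.09 turned to 0.08 with scaling to the sum of values. Nos1, neuronal nitric oxide synthase, which docks at that complex, had 83.7, 78.4 and 80.4 in the control and 35.3, 22.4 and 25.6 in the p38alpha/gamma knockout (−1.53 ± 0.141, adjusted p = 0.000538). The p38alpha knockout, at 30.2 to 32.7, lay within the p38alpha/gamma knockout range. Dmd itself (−0.82, adjusted p = 0.00837), Sgcb (−0.52) and Dtna (−0.53) fell too.

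Channels and pumps of the fibre membrane gave 7 lower and 1 higher of 18 (median −0.46, and −0.25 with scaling to the sum of values). They included the sodium pump subunit Atp1b2 (−0.92, limma adjusted p = 0.00408) and the potassium channels Kcna7 (−0.93), Kcnj12 (−0.76) and Kcnj11 (−0.48). In calcineurin and CaMK signalling 7 of 16 fell and 3 rose (median −0.24, and −0.03 with scaling to the sum of values). The calcineurin subunit gene Ppp3cb fell (−0.91), and Rcan1, a calcineurin inhibitor and known target, rose (0.90, adjusted p = 0.0158). Both lost the call in 4 of the 9 fits that left out 1 library. In this list 3 genes fell and 1 rose with the replicate block. Of 28 excitation-contraction coupling genes 8 fell and 3 rose, and the median of −0.13 turned to 0.08 with scaling to the sum of values.

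Of 18 genes of glycogen metabolism 7 fell and none rose (median −0.42, and −0.21 with scaling to the sum of values). Phka1, the muscle regulatory subunit of phosphorylase kinase, had 1097, 1041 and 1007 in the control and 522, 493 and 481 in the p38alpha/gamma knockout (−1.07 ± 0.148, limma adjusted p = 0.00354). Gyg, which primes glycogen synthesis (−0.63, adjusted p = 0.00837), Ppp1r3a, the glycogen-targeting phosphatase subunit (−1.24, adjusted p = 0.0212), and Ugp2 (−0.52) fell as well, while the phosphorylase gene Pygm did not pass (−0.48, adjusted p = 0.117). Ppp1r3a and Ugp2 lost the call in 5 and 4 of the 9 fits that left out 1 library. Glycolysis held 3 lower and 1 higher of 21, at or below the background. The AMP deaminase gene Ampd1 fell from 1162, 1037 and 1183 to 573, 433 and 482 (−1.19, adjusted p = 0.00748). Gamt, the last enzyme of creatine synthesis, rose from 8.04, 7.64 and 9.39 to 27.9, 51.3 and 35.2 (2.02, adjusted p = 0.00154).

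Of 29 genes of the mTOR and AMPK pathways 10 fell and 2 rose, and 10 fell and 1 rose with the replicate block. Their median of −0.12 turned to 0.08 with scaling to the sum of values. The AMPK subunits Prkaa2 (269, 265 and 263 to 146, 112 and 129) and Prkab2 fell by 1.05 and 0.97 (limma adjusted p = 0.0125 and 0.0119). Rragd, a Rag GTPase that recruits mTORC1 to the lysosome, fell by 0.88 (adjusted p = 0.00512), and the S6 kinase gene Rps6kb1 by 0.52 (adjusted p = 0.00947). Lipid genes held few calls. Of 17 lipid droplet genes 2 rose and 2 fell (23.5% called, against 25.6% of all genes), and of 21 lipogenic and sterol genes 1 rose and 2 fell (14.3%). The lipid droplet coat gene Plin2 rose by 0.66 (adjusted p = 0.00197) and the beta-oxidation gene Hadh by 0.82 (adjusted p = 0.00597). The glycerolipid synthesis gene Gpam fell by 1.66 (adjusted p = 0.013), and so did Srebf1 (−0.78, adjusted p = 0.00181) and the malic enzyme gene Me1 (−0.998, adjusted p = 0.00932). Of 30 fatty acid oxidation genes 3 rose and none fell, which is below the background. Gpam lost the call in 3, and Prkaa2 and Prkab2 in 1, of the 9 fits that left out 1 library.

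Clock genes held 4 falls and no rise among 22 (18.2% called lower, against 14.4% of all genes). Their median of −0.32 became −0.11 with scaling to the sum of values. Cry1 was at −0.80 (limma adjusted p = 0.00522) and Nr1d2 at −0.55 (adjusted p = 0.00901). Among antioxidant genes 9 of 30 rose, with the peroxiredoxin Prdx4 at 0.82 (adjusted p = 0.00634), and 3 fell, with the quinone reductase Nqo1 at −0.95 (adjusted p = 0.00565). The antioxidant counts were 7 higher and 1 lower with the replicate block. Of 21 muscle-secreted factors 4 rose and 2, Ostn among them, fell (28.6% called, against 25.6% of all genes). Gdf11, a TGF-beta family ligand, fell by 1.15 (adjusted p = 0.00854). The interleukin 6 receptor Il6ra rose by 1.31 while its signalling partner Il6st fell by 0.51 (adjusted p = 0.00932 for both).

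Part of the nuclear genes of the respiratory chain and of ribosomes was called higher, by small amounts, and most of them did not pass the test. Of 37 complex I subunits 11 rose and none fell (median 0.32), and of 36 subunits of complexes III to V 13 rose and none fell (median 0.30). Ndufb3 had 111, 92.4 and 102 in the control and 142, 173 and 195 in the p38alpha/gamma knockout (0.73, limma adjusted p = 0.0177). Cox4i1, a core-associated subunit of cytochrome oxidase, had 667, 568 and 646 in the control and 837, 964 and 1058 in the p38alpha/gamma knockout (0.60, adjusted p = 0.0231). Both lost the call without 1 library in 4 and 5 of 9 fits. Of 78 cytosolic ribosomal protein genes 25 rose and 1 fell (median 0.26), with Rplp1 at 0.66 and Rps28 at 0.64, whose calls were lost in 2 and 5 of these fits. Of 74 mitochondrial ribosomal protein genes 11 rose, near the background (median 0.16).

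These calls moved with the fit. In the fit with the replicate block 4 of 37 genes of complex I, 3 of 36 of complexes III to V, 4 of 78 cytosolic and 7 of 74 mitochondrial ribosomal genes rose, near or below the 7.83% of all genes called higher there. Without the p38alpha knockout libraries the counts were 25, 19, 43 and 22, where 19.9% of all genes were called higher. Most of these genes were short, since 27 of 37, 25 of 36 and 50 of 78 lay in the shortest of the 5 bins by exonic length, where 19.0% of all genes were called higher. Translation factors gave 7 lower and 2 higher of 36 (4 and none with the replicate block), among them Eif4g2 (−0.51, limma adjusted p = 0.0063), and their median of −0.16 turned to 0.05 with scaling to the sum of values.

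Genes of the mitochondrial genome were called lower or not at all. Of 13 protein genes 4 fell and none rose, with a median of −0.29 that became 0.01 under quantile normalisation. mt-Nd5, a complex I subunit with no near-identical row in the table, had 7338, 6303 and 6230.1 in the control and 3573, 2175 and 2615 in the p38alpha/gamma knockout (−1.27 ± 0.218, limma adjusted p = 0.0063). mt-Nd2, also without a partner, fell by 0.51 (adjusted p = 0.0359, lost in 6 of the 9 fits that left out 1 library, and 0.0704 with the replicate block). The calls of mt-Nd4l and mt-Atp8 came from rows that overlap longer mitochondrial genes. Summed with their partners the differences were −0.35 and −0.56 instead of −1.38 and −1.40. These sums are weighted to the larger partners and say little about the 2 genes themselves. In the control mt-Nd4 had 17123, 15272 and 17396, and mt-Nd4l had 625, 569 and 564. Gm10222, identical to mt-Nd4l over 294 bases, went from 795, 642 and 691 to 375, 210 and 261 in the p38alpha/gamma knockout. Some nuclear copies of mitochondrial genes were also called lower, among them Gm10222 and, near the bottom of the table, Gm13340. Gm10925, Gm28437 and Gm28439 had the largest absolute falls of these copies and were each summed with the rows that share their sequence. They lost the call with the replicate block (adjusted p = 0.0546, 0.0711 and 0.0608). Gm10925 and Gm28437 also lost it under quantile normalisation and with scaling to the sum of values. Gm10925 plus mt-Atp6 went from 22553 ± 1618 to 15381 ± 2104, Gm28437 plus mt-Co3 from 21928 ± 1668 to 15503 ± 2018, and Gm28439 plus Gm10222 plus mt-Nd4 from 20322 ± 1569 to 14614 ± 2158. None of these summed groups overlapped. The copies Gm28661 and Gm28438 did not pass the test. Summed with mt-Co2 (23894 ± 1948 in the control and 24500 ± 2690 in the p38alpha/gamma knockout) and mt-Nd3 (2719 ± 182 and 2518 ± 240), their libraries overlapped.

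**Figure D5:**
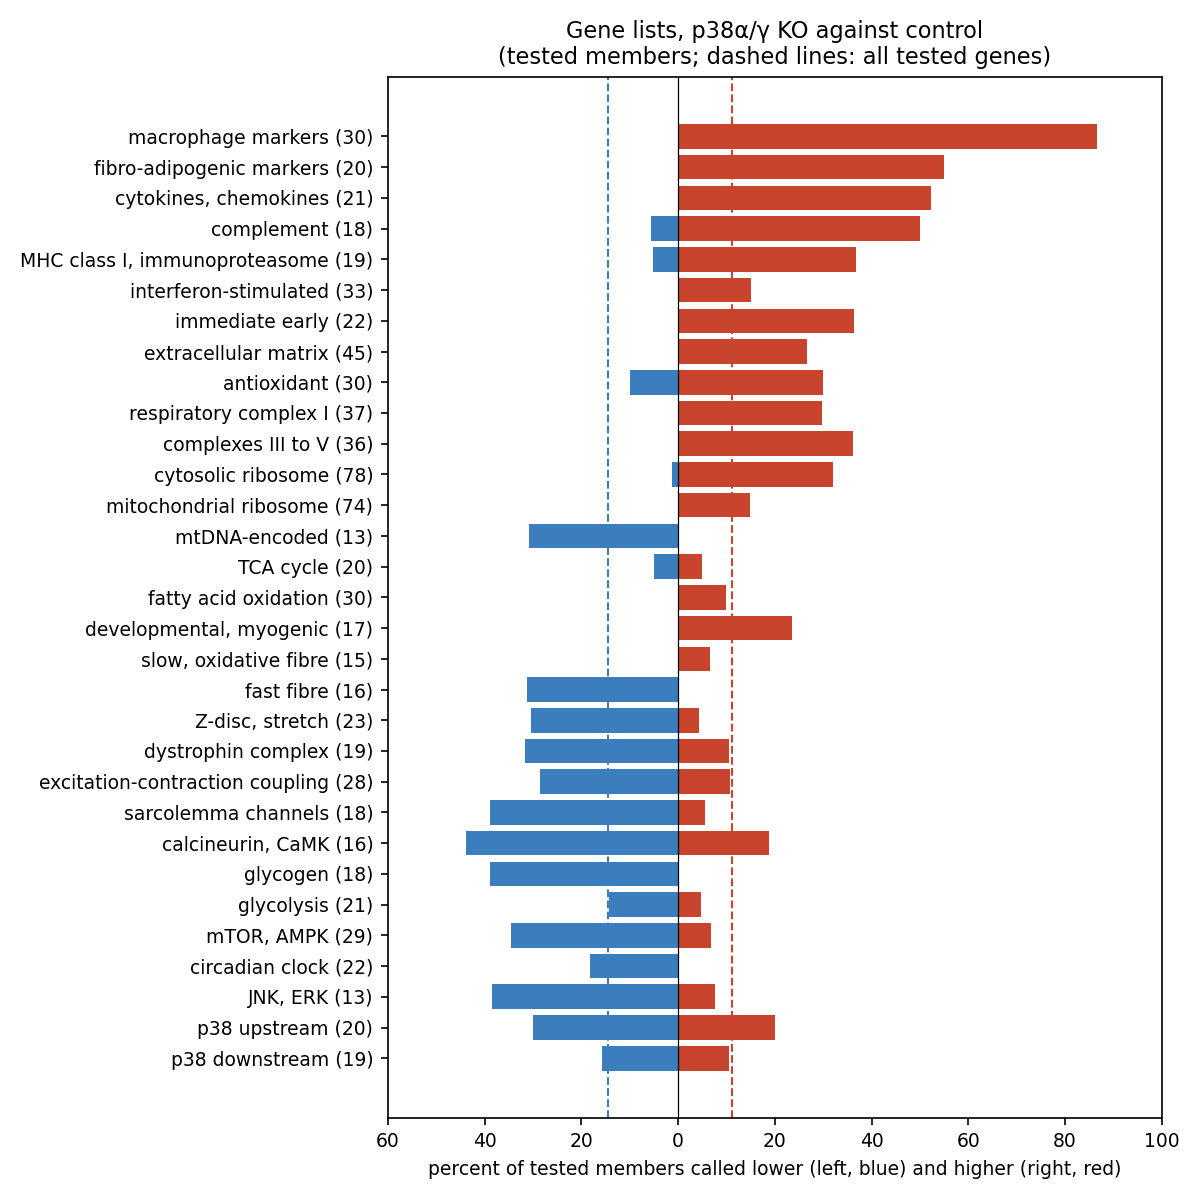
Percent of the tested members of each gene list called higher (right, red) and lower (left, blue) in the p38alpha/gamma knockout against control, with the number tested in brackets; dashed lines mark the shares over all tested genes, 11.2% and 14.4%. Macrophage markers have the longest bar to the right, 26 of 30, while the fast-fibre and glycogen lists have bars to the left only.

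The test of the p38alpha/gamma knockout against the p38alpha knockout shows where the p38alpha/gamma knockout differed. It called 58 of 13137 genes (0.442%), 42 higher (0.320%) and 16 lower (0.122%). Of these, 36 were also called against control, where 25.6% of all tested genes were called, 32 of them in the same direction. Both comparisons use the same p38alpha/gamma knockout libraries and the same spread, so agreement between them is partly built in. There were 13 pseudogenes among the 58, including Rpl3-ps1, Gm15459 and Rps13-ps1 described above, where 283 of the 13137 tested genes were pseudogenes. Among the genes called higher, 8 had under 3 reads in each of the 6 other libraries. Those 8 passed the filter through the p38alpha/gamma knockout alone, so no other direction was possible for them. Ucp2, Ier3 and Mapk12 were called in both comparisons in the same direction. Mylk4, a myosin light chain kinase gene, was lower than control (1234, 1710 and 1552 to 1002, 906 and 969.5, −0.63, limma adjusted p = 0.0244, lost in 4 of the 9 fits that left out 1 library and with quantile or sum scaling) but higher than the p38alpha knockout at 290, 397 and 439 (1.37, adjusted p = 0.00611). Amd1, of polyamine synthesis, also exceeded the p38alpha knockout (1.27, adjusted p = 0.0128) and did not differ from control past the threshold (−0.37, adjusted p = 0.133).

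By position, 12 of the 58 genes lay on chromosome 17 (1.92% of 624 tested there) and 8 on chromosome 13 (1.70% of 471), against 0.442% overall. Chromosome 17 carries Mapk14, which was low in both knockouts and is not among the 58. Chromosome 15, with 5 calls (0.990% of 505), carries Mapk12, which is itself among those 5. Against control, 43 of 176 genes within 5 Mb of Mapk14 were called (24.4%), near the background, and 19 of 57 within 5 Mb of Mapk12 (33.3%). The 58 calls depended on single libraries. Without p38alpha knockout 1 there were 1862, and without p38alpha/gamma knockout 3 there were 13.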

How the data were processed

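Polyadenylated RNA of 9 gastrocnemius libraries was sequenced as 51-base single reads from a directional kit, from 100 ng of RNA with an integrity number above 8, per the labels' protocols. Tools named in the submitters' processing notes are RSEM 1.3.1, limma, cutadapt and CASAVA 1.8, with genome GRCm38. The authors deposited 1 table of 13179 genes whose values are a normalised count signal, and how it was scaled and filtered is not given in the sources used here. Every value was a whole number of reads plus 0.5, divided by a library factor, which gave the inferred reads. Since the deposited values are not raw counts, no count test was run.

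Genes that reached 1 in 3 or more libraries were fitted as log2(value + 1) with limma 3.58.1 (R 4.3.3, eBayes with trend). All 9 libraries shared the spread, and p-values were Benjamini-Hochberg adjusted over all tested genes of a comparison. Groups follow the genotype labels. P-values measure the spread between libraries, which may be technical. The analysis was tested on simulated data. Deviations of same-numbered p38alpha/gamma knockout and control libraries were weakly correlated (r = 0.111, 0.124 and 0.148, other pairs between −0.147 and 0.018), so a replicate block was fitted as an alternative. The deviations were taken from means of 3 libraries, which ties these correlations to each other, so they do not show a pairing. The labels state no such pairing.

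Gene models were those of GENCODE M21 (13166 of 13179 matched). Rows sharing sequence were overlapping models or blastn 2.17.0 matches of at least 95% identity over at least 150 bases. The search covered 61 genes. Genes named only as list members, other than those of the mitochondrial genome, were not searched. Promoters came from RefSeq GRCm38.p6. Gene lists, members and tests were chosen with earlier results of these data known. Named genes were the targeted isoforms and Il15, the 12 largest called rises and falls with groups apart and a mean of at least 5 in the higher group (no pseudogenes or predicted genes), the 8 largest absolute differences each way, up to 4 called members per list with the lowest p and its most abundant uncalled member, and the 8 lowest p between the knockouts. Other list members are named as part of their list's count, after their values were seen. Alternatives tried were the pseudocount, the filter, the scaling, the spread estimate, the replicate block, the 6 libraries alone, stricter thresholds and leaving out each library.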

Additional observations from a re-analysis of the deposited data

How the results depend on the processing

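Against control, the count of 3368 genes (1476 higher, 1892 lower) stayed within 1.5 times when the filter, pseudocount, TMM, ratio or quantile scaling, trend or robust spread was changed. It moved to 5478 (2555 and 2923) with the 6 libraries only, to 6740 (3330 and 3410) with array weights, to 6452 (3162 and 3290) with array weights fitted gene by gene, to 707 (267 and 440) at an adjusted p of 0.01 and to 1597 (808 and 789) with at least 1.5-fold. The TMM and ratio factors lay between 0.990 and 1.006, so those scalings could barely change the values or the count. Scaling to the sum of values gave 3349 higher and 836 lower. This scaling, no pseudocount, the gene-by-gene weights and the 6-library block were added after seeing the data. The causes were not tested beyond the fewer libraries or stricter threshold in each.

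Leaving out 1 library gave 844 to 5346 genes (325 to 2505 higher, 519 to 2841 lower). The lowest count came without p38alpha/gamma knockout 2. Without p38alpha/gamma knockout 3 it was 1010, without control 1, 2 and 3 it was 1094, 1634 and 1173, and without p38alpha knockout 1 it was 5346. Mapk14 stayed between −1.88 and −1.61 and Mapk12 between −2.13 and −2.04. Between the knockouts the 58 calls ranged from 13 to 1862 (6 to 851 higher, 5 to 1011 lower). They were 23 and 20 without p38alpha/gamma knockout 1 and 2, 38 without control 3 and 20 without p38alpha knockout 2. They were 6087 (3020 and 3067) with array weights, 3197 (1562 and 1635) with weights gene by gene and 24 (17 and 7) at 0.01, and 8 were lower under a filter of 5.

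With the replicate block 2320 genes were called (1029 higher), 5563 (2623 and 2940) with the 6 libraries only, and 32 (24 and 8) between the knockouts. Of 238 called genes singled out by the naming rule, 37 lost the call under the block, 98 were called in every alternative and 0 reversed.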

Other observations

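Of 6 tested genes on chromosome Y, 5 were called between the p38alpha/gamma knockout and the control (83.3%, against 25.6% of all tested genes). They are named here after their values were seen. Ddx3y had normalised counts of 90.7, 93.1 and 76.7 in the control and 60.02, 57.1 and 55.9 in the p38alpha/gamma knockout (−0.58, limma adjusted p = 0.0332). Kdm5d (−0.61), Uty (−0.84) and Eif2s3y (−0.66) were lower too, and Erdr1 was higher (0.54). All 9 libraries held reads of each of these genes.

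Of 12 cell-cycle genes 2 were called higher and 1 lower. This share is close to the 25.6% of all tested genes called in either direction, so the list does not stand out. The called genes act in DNA replication and are given as single genes. Mcm6, a subunit of the replicative helicase, had 2.73, 4.05 and 3.01 in the control and 8.77, 10.3 and 8.17 in the p38alpha/gamma knockout (1.25, limma adjusted p = 0.00741). Rrm2, of deoxynucleotide synthesis, rose by 1.14 (adjusted p = 0.00751). Pcna fell by 0.56 (adjusted p = 0.039, and 0.0567 with the replicate block). Its call was lost in 6 of the 9 fits that left out 1 library (limma adjusted p up to 0.144). The pseudogene row Pcna-ps2 rose from a mean of 0.129 in the control to 8.61 in the p38alpha/gamma knockout. Pcna was not searched for shared sequence or summed with that row, so its own fall was not separated from a shift of reads between rows.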
